A study of Homo sapiens with 6 samples.

Results

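Passenger-strand miRNAs, the star miRNAs, were followed in HK-2 cells, an established human proximal tubular epithelial line. A microRNA (miRNA) hairpin is cut by Drosha and Dicer to a duplex of 2 short strands. Usually 1 strand, the guide, is loaded into an Argonaute protein and represses mRNAs that match its seed, the bases 2 to 8 from its 5′ end. The other strand is mostly degraded, and in the older nomenclature it carries an asterisk. In many hairpins the starred strand is loaded as well, and its seed then reads other targets than the seed of its partner.

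Members were the human probes whose name ends in an asterisk on all 6 arrays, which gave 188 of 1719 human probes. A probe of the same name without the asterisk, here called the partner, was present for 159 of them. Of the other 29, 27 paired with a partner once the locus number in the name was dropped, as for let-7a-2* and let-7a. A further 3 probes list several names with an asterisk inside and fall outside the rule. The arrays held RNA of 3 control samples and of 3 samples given aristolochic acid at 5 µg/ml for 48 h, all in medium with low serum. Aristolochic acid, a toxin of Aristolochia plants, binds to DNA as adducts and damages kidney tubules. Total RNA was labelled with Cy5, 1 sample on each array. HK-2 is a single immortalised line, and the labels do not say whether replicates were separate cultures, so the p-values rest on a spread that may be technical.

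The partners of tubular and epithelial hairpins were present. miR-200a, miR-200b, miR-200c, miR-205, miR-192 and miR-194 were detected on all 6 arrays, whereas miR-141 was detected on 5. The authors subtracted a background of 50.6 to 51.8 from the control arrays and of 53.3 to 61.8 from the treated ones, so background and treatment cannot be told apart. The number of arrays limits the precision of each value below.

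The sequences of the star strands that carry the results are from the RefSeq miRNA table (GRCh38.p14), with the seed in capitals. The table names strands by their side of the hairpin (-5p or -3p), and the starred names were assigned to a side by hand. The first group holds miR-187*, the brightest star strand. It also holds 3 star strands that gave more signal than their partner, with those partners. These 3 are from the 21 pairs with both strands detected on all 6 arrays.
miR-187* (chr18:35904871-35904892, minus strand): gGCUACAAcacaggacccgggc
miR-1228* (chr12:57194504-57194524, plus strand): gUGGGCGGgggcaggugugug
miR-1228: uCACACCUgccucgcccccc
miR-149* (chr2:240456056-240456076, plus strand): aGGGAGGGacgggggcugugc
miR-149: uCUGGCUCcgugucuucacuccc
miR-92b* (chr1:155195196-155195217, plus strand): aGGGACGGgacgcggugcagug
miR-92b: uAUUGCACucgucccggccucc

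The second group holds miR-30a* and miR-30e*, which are also among the brightest, and star strands whose shift, or whose ratio to the partner, is described below. miR-30a* and miR-30e* have the same seed, as do their partners.
miR-30a* (chr6:71403554-71403575, minus strand): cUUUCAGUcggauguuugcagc
miR-30e* (chr1:40754413-40754434, plus strand): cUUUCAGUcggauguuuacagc
miR-30a: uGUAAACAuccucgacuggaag
miR-30e: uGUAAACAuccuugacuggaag
miR-17* (chr13:91350655-91350676, plus strand): aCUGCAGUgaaggcacuuguag
miR-17: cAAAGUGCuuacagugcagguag
miR-1909* (chr19:1816203-1816223, minus strand): uGAGUGCCggugccugcccug
miR-1909: cGCAGGGGccgggugcucaccg
let-7a-2* (chr11:122146523-122146544, minus strand): cUGUACAGccuccuagcuuucc

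Star strands were detected less widely than their partners. A probe counted as detected wherever its background-subtracted intensity had been kept by the authors. In control, 88, 92 and 59 star probes were detected, and after treatment 61, 82 and 68. As shares of the 188, these were 46.8%, 48.9% and 31.4% in control and 32.4%, 43.6% and 36.2% after treatment. The groups overlapped. Among the 159 partners, between 61.0% and 74.2% were detected on an array, and among the 1372 other human probes between 35.4% and 52.9%. Negative control spots passed the same limit at 8.33% to 41.7% on an array, and blank spots at 6.09% to 8.01%, so detection on a single array is weak evidence for a strand. Detection on all 6 arrays was met by 36 star probes (19.1%), by 88 partners (55.3%), by 27.6% of the other human probes and by 0 of 24 negative control spots. On no array at all were 59 star probes (31.4%) and 25 partners (15.7%) detected, and 93 star probes were detected on some arrays. Above the brightest negative control spot on every array were 14 star probes, namely miR-187*, miR-1228*, miR-30a*, miR-149*, miR-30e*, miR-92b*, miR-181a-2*, miR-17*, miR-1914*, miR-21*, miR-22*, miR-222*, miR-34b* and miR-106b*.

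**Figure D1:**
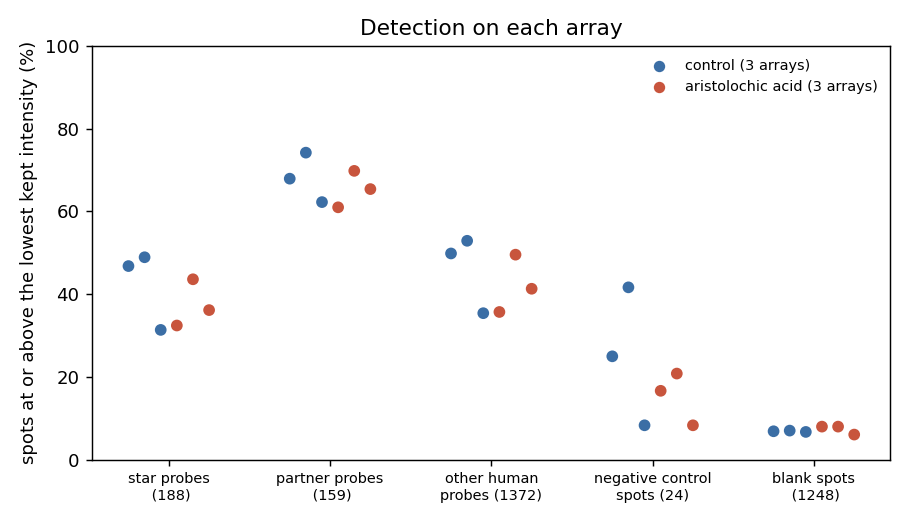
Percentage of spots of each kind that were at or above the lowest intensity the authors kept, for each array (1 point per array, blue control, red aristolochic acid). Star probes lie between 31.4% and 48.9% and partner probes between 61.0% and 74.2%, with both groups overlapping in each kind.

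Within the pairs of the same name, both strands were detected on all 6 arrays in 21 pairs. In 67 pairs the partner was detected on all 6 arrays and the star was not, and in 23 of these the star was detected on no array. The miR-200 family, which holds epithelial cells in their epithelial state, is an example. miR-200b had scaled intensities between 163 and 208, while miR-200b* was detected on 1 control array at 6.70 and on 1 treated array at 5.93. miR-200a* and miR-200c* were likewise detected on at most 2 arrays, and miR-192*, from a kidney-enriched hairpin, on none. miR-141* was detected on 1 control array, but miR-141 was not detected on all 6 arrays, so that pair is outside the 67. The scaled intensity is the background-subtracted intensity with each array set to a median of 25 over the human probes that were detected on all 6.

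In 9 pairs the star was detected on all 6 arrays and its partner was not. miR-150* and miR-500a* had partners detected on no array, with mean scaled intensities of 14.1 and 8.85 for the stars. The partners of miR-187*, miR-1914*, miR-34b*, miR-449b*, miR-593*, miR-625* and miR-877* were detected on some arrays. miR-34b, from a hairpin that p53 is known to induce, was detected on 3 arrays, while miR-34b* read 22.6, 24.6 and 15.8 in control and 19.5, 13.8 and 9.60 after treatment. Its groups overlapped and the limma difference was -0.11 on the log2 scale (adjusted p = 0.374).

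The signal of the star strands came from few probes. All detected star probes together held 1.27% to 1.40% of the human signal in control and 1.40% to 1.44% after treatment, and the 6 brightest held 58.4% to 67.9% of the star signal. miR-187* was the brightest. It read 483, 574 and 439 in control and 419, 355 and 439.6 after treatment, with means of 499 ± 69.0 and 404 ± 43.8 (SD, n = 3 each). The groups overlapped by less than 1 unit. The limma difference of miR-187*, treated minus control, was -0.12 ± 0.12 (SE) with an adjusted p of 0.695. Its partner miR-187 read 7.94 and 9.62 on 2 control arrays, was not detected on the other, and read 12.6, 4.20 and 11.0 after treatment.

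miR-1228*, from a short intronic hairpin of the mirtron type, read 231.6, 219.8 and 214.6 in control and 281.9, 256.9 and 268.8 after treatment. All treated values lay above all control values, and the means of 221.98 ± 8.71 and 269.2 ± 12.5 (SD, n = 3 each) differed 1.21-fold. Its limma difference of 0.22 ± 0.040 (SE) did not pass (adjusted p = 0.0687). This was the smallest adjusted p among the star probes. The difference kept its sign under all 18 alternative settings, with adjusted p-values between 0.00125 and 0.973, and it passed under 4 of them (no normalization, median scaling, 75th percentile scaling and cyclic loess).

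miR-30a*, the other strand of a miR-30 hairpin that is abundant in kidney epithelium, read 163.9, 157.6 and 157.5 in control and 134.0, 121.0 and 143.8 after treatment. The groups did not overlap, and the treated mean of 132.9 ± 11.4 was 1.20-fold below the control mean of 159.6 ± 3.70 (SD, n = 3 each). The limma difference was -0.17 ± 0.032 (SE) with an adjusted p of 0.0743. The sign was not stable, since it was above 0 without normalization (0.19), with median scaling (0.02) and with scaling on the spike-ins (0.0013). miR-30e*, with the same seed, read 131.3, 147.1 and 118.9 in control and 140.1, 108.3 and 143.02 after treatment, and its groups overlapped (limma difference 0.00, adjusted p = 0.986).

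miR-149* read 159.0, 168.4 and 153.7 in control and 188.4, 154.3 and 187.2 after treatment, and miR-92b*, the passenger of a miR-25 family hairpin, read 70.5, 73.2 and 73.8 against 73.1, 66.8 and 56.0. Both overlapped between groups, with limma adjusted p-values of 0.630 and 0.762. The next 4 were dimmer. miR-181a-2* read 36.8, 31.2 and 28.9 in control and 35.8, 32.1 and 22.1 after treatment. miR-1914* read 24.04, 19.7 and 23.8 against 21.3, 24.2 and 25.7, and miR-21*, the passenger of the injury-associated miR-21, read 27.8, 22.8 and 23.9 against 12.5, 24.8 and 18.9. In these 3 the groups overlapped as well, with limma adjusted p-values of 0.803, 0.821 and 0.473.

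**Figure D2:**
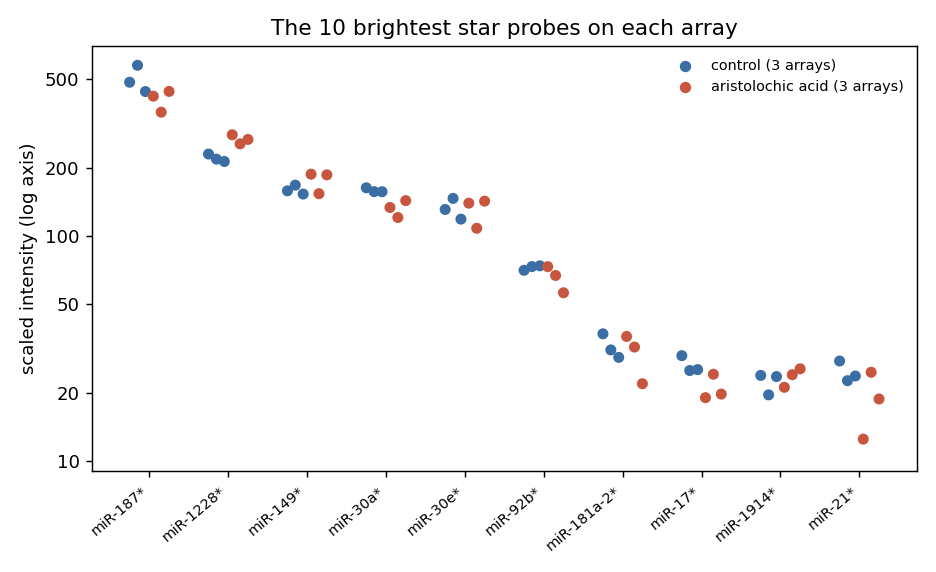
Scaled intensity (log axis) of the 10 star probes with the highest mean on each of the 3 control (blue) and 3 treated (red) arrays, 1 point per array. miR-187* lies between 355 and 574, miR-1228* is higher and miR-30a* lower on every treated array, and in most others the groups overlap.

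No star probe passed the test between the groups. Of the 188 star probes, 58 were complete in control or after treatment, or both, and entered the limma fit over 625 human probes, in which 0.96% passed at an adjusted p under 0.05. Of the 58, 0 passed, and 5 (8.62%) had an unadjusted p under 0.05, against a background of 15% of all tested probes. Of the 58, 22 entered through 1 group alone, and among the 36 detected everywhere 0 passed and 4 had an unadjusted p under 0.05. Of the 5, 1 was higher in the treated samples and 4 were lower, against backgrounds of 7.04% higher and 8% lower. The limma differences ran from -0.17 to 0.22 with a median of -0.02, against -0.01 over all tested probes. In 11 of the 57 star probes with a value on every array the groups did not overlap, which is 19.3% against a background of 19.6%. The 11 include miR-431* and miR-518c*, complete in control only and higher there. They also include miR-373* and miR-130b*, complete after treatment only and higher there. The filter favours such a separation, so none is read from these probes. On the scaled intensity, the groups did not overlap in 7 of the 36 star probes detected everywhere (19.4%, background 22.9%). These were miR-1228* and let-7a-2*, which were higher in the treated samples, and miR-30a*, miR-365*, miR-17*, miR-625* and miR-1909*, which were lower. Both shares lay near those of the array as a whole. The count of calls depended on the scaling between arrays. Without normalization, which moved the median of all tested probes to 0.14, 21 star probes passed, all of them higher (background 49.6%). With 75th percentile scaling, which moved that median to -0.11, 33 passed, 2 higher and 31 lower (background 39.2%). With median scaling 2 passed, miR-1228* and miR-149* (background 5.92%), with cyclic loess miR-1228* alone (background 1.12%), and with scaling on the spike-ins let-7a-2* alone (background 3.98%).

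Among the dimmer strands, miR-365* had the lowest unadjusted p after miR-1228* and miR-30a*. It read 14.7, 17.2 and 19.8 in control and 8.72, 10.2 and 11.4 after treatment, and the groups did not overlap. The treated mean of 10.1 ± 1.32 was 1.70-fold below the control mean of 17.2 ± 2.58 (SD, n = 3 each). On the limma scale, which compresses dim probes, the difference was -0.11 ± 0.037 (SE) and did not pass (adjusted p = 0.213).

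miR-17*, cut from the first hairpin of the growth-promoting miR-17~92 cluster, read 29.4, 25.3 and 25.5 in control and 19.1, 24.3 and 19.9 after treatment. Each treated array lay below each control array, with means of 26.7 ± 2.32 and 21.1 ± 2.81 (SD, n = 3 each), but its limma difference of -0.09 did not pass (adjusted p = 0.310). let-7a-2*, a passenger of the differentiation-associated let-7 family, read 4.11, 6.56 and 7.03 against 12.6, 9.47 and 8.55, a 1.75-fold difference in means from 5.90 ± 1.57 to 10.2 ± 2.12 (SD, n = 3 each). The groups were apart, and the limma difference of let-7a-2* was 0.08 (adjusted p = 0.355). The differences of miR-365* and miR-17* were above 0 without normalization, and that of let-7a-2* was below 0 with 75th percentile scaling.

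A further 22 star probes were complete in 1 group only, 15 in control and 7 after treatment. miR-373*, from a stem cell cluster, was detected on 0 control arrays and on 3 treated arrays at 6.48, 7.47 and 6.35. All of these values lie close to the detection limit, and its difference was 0.07 in the limma fit, -0.03 with median scaling and -0.11 with 75th percentile scaling. miR-431* was detected on 3 control arrays at 11.7, 11.97 and 12.4 and on 2 treated arrays at 8.42 and 8.39. miR-130b*, complete after treatment, and miR-518c*, complete in control, had limma differences of 0.09 and -0.07. Because such probes entered the fit through 1 group, no test is read from them. In miR-185*, 1 control spot carried the authors' outlier mark and was left out of the fit.

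On the scaled intensity, the spread was wider in dimmer star probes. The pooled SD within groups of the log2 scaled intensity was 0.14 for the 6 star probes with a mean of at least 50. It was 0.27 for the 5 between 20 and 50, and 0.41 for the 25 below 20. The limma tests used the other scale, which compresses dim probes. There the SE was 0.12 for miR-187*, 0.040 for miR-1228* and 0.037 for miR-365*.

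In the 21 pairs with both strands detected everywhere, most star strands gave less signal than their partner, and 3 gave more. The ratio of star to partner was taken on each array from the background-subtracted intensities, so it does not depend on the scaling between arrays. Its level also depends on how well each probe binds its strand and on how well the strand is labelled, and is therefore no ratio of molecules. In 17 of the 21 pairs the star was dimmer than the partner on every array, in 3 it was brighter on every array, and in miR-550a* the order varied. The median over pairs of the partner-to-star ratio was 7.76 in control and 7.91 after treatment.

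The limit of detection bears on these ratios. In 8 of the 21 pairs both strands lay above the brightest negative control spot on every array, and in the others the dimmer strand did not, so that its ratios are less certain. For the highest and lowest ratios a bound is given in which the dimmer strand is set no lower than that spot.

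As measured, miR-1228* was 22.7, 13.3 and 33.8 times as bright as miR-1228 in control and 16.2, 32.8 and 16.8 times after treatment. miR-1228 lay above the brightest negative control spot on 1 control array and 3 treated arrays, and with the bound the star was at least 18.3-fold brighter in control and 20.8-fold after treatment (geometric means). miR-149* was 10.1, 13.6 and 16.6 times as bright as miR-149 in control and 25.4, 9.85 and 18.8 times after treatment. miR-149 also lay above that spot on 1 control array and 3 treated arrays, and the star was at least 11.4-fold brighter in control and 16.7-fold after treatment. The ratios of miR-92b* to miR-92b were closer together, with both strands above that spot throughout, at 2.15, 2.23 and 1.85 against 2.17, 2.49 and 2.27. All 3 overlapped between groups. After these, the ratio was highest for miR-550a*, at 0.583, 0.620 and 0.542 in control and 1.04, 0.424 and 0.433 after treatment, and for miR-30e*, at 0.343, 0.397 and 0.229 against 0.356, 0.291 and 0.360. miR-550a* lay above the brightest negative control spot on 4 of 6 arrays. With the bound, miR-550a was at least 1.53-fold brighter in control and 1.63-fold after treatment (geometric means).

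At the other end, miR-21 was 312 times as bright as miR-21* in control and 757 times after treatment (geometric means), but without control replicate 3 the control ratio was 563. The other 4 stars with the lowest ratios did not lie above the brightest negative control spot on every array, so bounds are given. let-7d was at least 35.4-fold brighter than let-7d* in control and 48.2-fold after treatment. For miR-20a and miR-20a* the bounds were at least 32.3-fold and 40.0-fold, for miR-29a and miR-29a* at least 29.6-fold and 38.8-fold, and for miR-29c and miR-29c* at least 14.3-fold and 15.8-fold. let-7d and miR-29 are broadly expressed guides, the latter known to repress collagen genes.

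**Figure D3:**
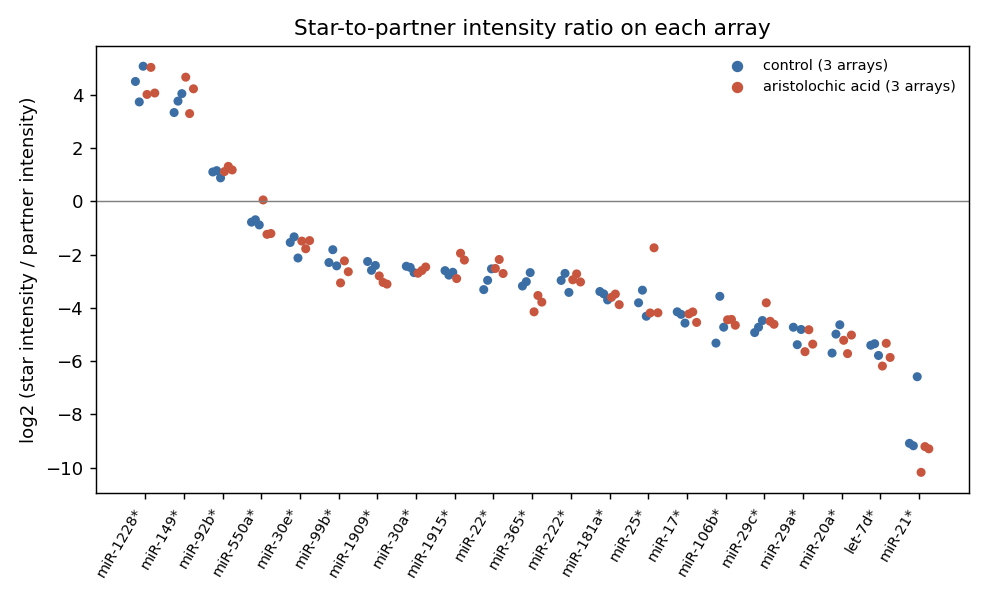
Log2 of the star intensity over the partner intensity in the 21 pairs with both strands detected everywhere, 1 point per array (blue control, red aristolochic acid), ordered by the control mean. Points above 0 are brighter stars: miR-1228*, miR-149* and miR-92b* lie above 0 on all 6 arrays, and the miR-21* point of control replicate 3 stands apart from the others of that pair.

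No ratio passed the test between the groups. Of the 21 pairs, 0 passed in the limma fit (background 0%), 2 had an unadjusted p under 0.05 (background 9.52%), and in 3 the groups did not overlap (background 14.3%). The background is these same 21 pairs, since no other probes are paired. The changes lay on both sides of 0, with 11 below and 10 above and a median of -0.01 on the log2 scale. The 95% interval of a change reached between 0.48 and 1.62 to either side, with a median of 0.66, a factor of 1.58.

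The ratio of miR-365* to miR-365 was 0.110, 0.124 and 0.157 in control and 0.0563, 0.0863 and 0.0726 after treatment. The groups did not overlap. The change was -0.87 ± 0.26 on the log2 scale (SE; 95% interval -1.46 to -0.27), with an unadjusted p of 0.0107 and a limma adjusted p of 0.225. With a variance trend and robust limma estimation this pair passed (adjusted p = 0.00087). The scaled log2 difference was -0.77 for the star and 0.10 for the partner. miR-365* lay above the brightest negative control spot on 5 of 6 arrays. Before background subtraction it read 60.5, 62.5 and 61.9 in control and 69.5, 62.9 and 67.4 after treatment. The subtracted background was larger on the treated arrays, so background and treatment cannot be told apart in this ratio.

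The ratio of miR-1909* to miR-1909 was 0.209, 0.166 and 0.188 in control and 0.144, 0.121 and 0.116 after treatment. Again the groups did not overlap. The change was -0.57 ± 0.21 (SE; 95% interval -1.07 to -0.06), with a limma adjusted p of 0.335. Here the star differed by -0.41 and the partner by 0.16, and miR-1909* lay above the brightest negative control spot on 1 array. Before background subtraction miR-1909* read 57.0, 56.1 and 55.1 in control and 67.4, 59.0 and 62.6 after treatment.

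In the pair of miR-21* and miR-21 the groups were apart too, with a change of -1.28 ± 0.69 (SE) and a limma adjusted p of 0.635. This value rests on 1 array. miR-21 read 15181, 13225 and 2297 in control and 14539.6, 14723 and 11876 after treatment, and without control replicate 3 the change was -0.43.

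The next pairs by unadjusted p all overlapped between groups, with limma adjusted p-values between 0.635 and 0.827. They were miR-22* (change 0.47), miR-99b* (-0.47), miR-29c* (0.40), miR-1915* (0.33), miR-29a* (-0.30), let-7d* (-0.28) and miR-149* (0.35). miR-22 itself read 197.7, 138.05 and 145.96 in control and 84.8, 105.0 and 144.2 after treatment, while miR-22* lay within 14.8 to 25.2 on all arrays.

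In some pairs the scaled differences of both strands were alike. For miR-17* and miR-17 they were -0.35 and -0.36, and the change of the ratio was 0.01 (95% interval -0.53 to 0.55). For miR-30a* and miR-30a they were -0.27 and -0.21, with a change of -0.06 (95% interval -0.53 to 0.42). For miR-550a* and miR-550a they were -0.41 and -0.40. For miR-1228* and miR-1228 they were 0.28 and 0.34, but the partner was dim and the interval of the change ran from -1.05 to 0.92. These intervals do not show that both strands moved alike.

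Over the 21 pairs, the difference had the same sign in both strands in 13 pairs, with 3 higher and 10 lower, and opposite signs in 8. Pearson's r between the differences of the strands was 0.01 and Spearman's rho 0.06, or 0.22 and 0.22 over 20 pairs without miR-21. Both strands share the arrays and the scaling, so these are given as a description.

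**Figure D4:**
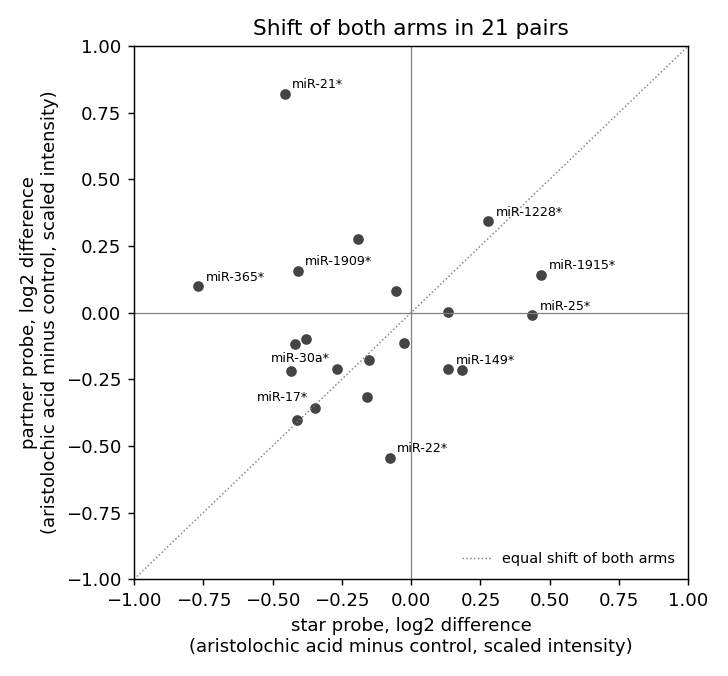
Log2 difference between treated and control scaled intensity of the partner (vertical) against that of the star (horizontal) in 21 pairs, 1 point per pair, with a dotted line for equal shifts. miR-17* and miR-30a* lie near the line, while miR-365*, miR-1909* and miR-21* lie to the left of it with partners above 0.

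Among the partners, 95 were tested and 2 passed, miR-194 and miR-205, against a background of 0.96% of all tested probes. In the same limma fit, 19 of the 95 (20%) had an unadjusted p under 0.05, against a background of 15%. Of the 95, 88 were detected on all 6 arrays and the others entered through 1 group alone. One of these others, miR-141, was complete after treatment only, was higher there and is among the 19. The filter favours such a difference, so no test is read from miR-141. miR-194, a kidney and liver miRNA cut from the same transcripts as miR-192 and miR-215, read 20.7, 15.9 and 22.2 in control and 41.9, 39.8 and 51.7 after treatment, and it rose by 0.35 ± 0.046 on the limma scale (SE; adjusted p = 0.0194). The call held under 13 of 18 alternatives and was lost with the authors' normalized intensities (limma adjusted p = 0.374) and without control replicate 1, control replicate 2, treated replicate 1 or treated replicate 3 (adjusted p = 0.0787 to 0.0863). The difference of miR-194 was above 0 throughout. miR-194* was detected on 3 control arrays at 5.77, 4.67 and 8.07 and on 1 treated array at 5.68, with a limma difference of -0.02. A further fit, on normexp and quantile values, covered 35 pairs with both strands complete in at least 1 group. There the ratio of miR-194* to miR-194 was lower after treatment by 0.37 ± 0.057 (SE). miR-194* entered that fit through control alone, so no test is read from this ratio. miR-194* lay near the detection limit on all arrays, where this scale can show little change of the star.

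miR-205, an epithelial miRNA, read 130.5, 132.2 and 122.4 in control and 83.3, 72.7 and 92.7 after treatment, and it fell by 0.32 on the limma scale (SE 0.042, adjusted p = 0.0194). The call on miR-205 held under 8 of 18 alternatives, with differences below 0 throughout and limma adjusted p-values of 0.00702 to 0.884. It was lost with the authors' intensities, scaled intensities, no normalization, median scaling, the spike-ins and the replicate block (adjusted p = 0.146), and without any 1 of the control arrays or treated replicate 1. miR-205* was detected on 2 control arrays, at 9.62 and 12.3, and on 0 treated arrays, and it was not tested.

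Of the stars paired by dropping the locus number, 6 were detected on all arrays together with their partner. The changes of the ratios of let-7a-2* to let-7a and of miR-92a-2* to miR-92a were 0.82 and 0.71, with limma adjusted p-values of 0.430 and 0.422, and neither star lay above the brightest negative control spot on every array. miR-138-1*, miR-138-2*, miR-16-2* and miR-181a-2* had changes between -0.21 and 0.04. A partner without a locus number can come from several hairpins.

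By cluster or family, star strands were spread thinly, and 0 members of any list passed the limma test. An unadjusted p under 0.05 was reached by 1 member each of the miR-17~92, miR-30 and 14q32 lists, namely miR-17* of 6 tested, miR-30a* of 3 and miR-431* of 1, against the background of 15% of all tested probes (0.96% after adjustment). miR-431* entered the fit through control alone, so no test is read from it. The miR-17~92 cluster and its paralogs had 15 star probes, of which 5 were detected on all arrays (miR-17*, miR-25*, miR-92a-2* and miR-20a* being the brightest) and 6 were tested, with a median difference of -0.05. The miR-30 family had 6, of which 2 were detected everywhere and 3 were tested (median -0.03). The let-7 family had 9, of which 2, let-7a-2* and let-7d*, were detected everywhere and 4 were tested (median 0.01). The miR-29 family had 4 star probes with 2 detected everywhere, miR-29a* and miR-29c* (3 tested, median -0.03), and the miR-181 family had 3 with 2, miR-181a-2* and miR-181a* (2 tested, median -0.02). The median over all tested probes was -0.01.

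In the miR-15/16 family 1 of 7 star probes was detected everywhere (miR-16-2*; 2 tested, median -0.01), for miR-221* and miR-222* 1 of 2 (miR-222*; 2 tested, median -0.02), and in the miR-99, miR-100 and miR-125 families with the HOX cluster miRNAs 1 of 9 (miR-99b*). Of the kidney and p53 hairpins, miR-34b* was detected everywhere among 4 (2 tested, median -0.06), and of the injury, inflammation and hypoxia hairpins miR-21* among 3. None was detected everywhere among the 6 stars of miR-23/24/27, the 4 of the miR-200 family, the 10 of the 14q32 cluster, the 11 of the placental and stem cell clusters and the 1 of Xq26. In these lists 1, 0, 1, 2 and 0 were tested.

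Of the 20 stars of hairpins typical of other cell types, 2 were detected on all arrays, 8 on some and 10 on none. Of all star probes, 80.9% were likewise not detected on all arrays. None was detected on all arrays among the 2 of blood, the 1 of endothelium, the 3 of stroma and muscle, the 1 of liver and the 5 of pluripotent cells. Among the 8 of neural tissue, miR-138-1* and miR-138-2* were detected everywhere, between 7.09 and 16.9.

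The combined GC content was higher in star strands that were detected more widely, while the median G content was 22.7% in each class. A sequence was found for 162 of the 188. The median GC content was 54.5% for those detected on all arrays (33 of 36 with a sequence), 50% for those detected on some (77 of 93) and 45.5% for those detected on none (52 of 59). The 33 held 32 different seeds, and miR-30a* and miR-30e* were the pair that shared one.

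Among the 21 pairs with both strands detected everywhere, the 3 stars that gave more signal than their partner were rich in G. miR-1228* has 14 G among 21 bases and miR-1228 has 2 among 20. miR-149* has 13 among 21 against 4 among 23 in miR-149, and miR-92b* has 12 among 22 against 4 among 22 in miR-92b. In these 3 pairs the G content of the star exceeded that of the partner by 36.4 to 56.7 percentage points. In the other 16 pairs with both sequences, miR-550a* among them, the difference ran from -25.5 to 20.1 points. Stars detected everywhere whose partner was not are outside this comparison, and their G content varied. Among them miR-187*, brighter than miR-187 wherever both were detected, has 7 G among 22 bases. The G content was 4.76% in miR-877* and 54.5% in miR-1914*. The part of base composition in the ratios was not tested.

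**Figure D5:**
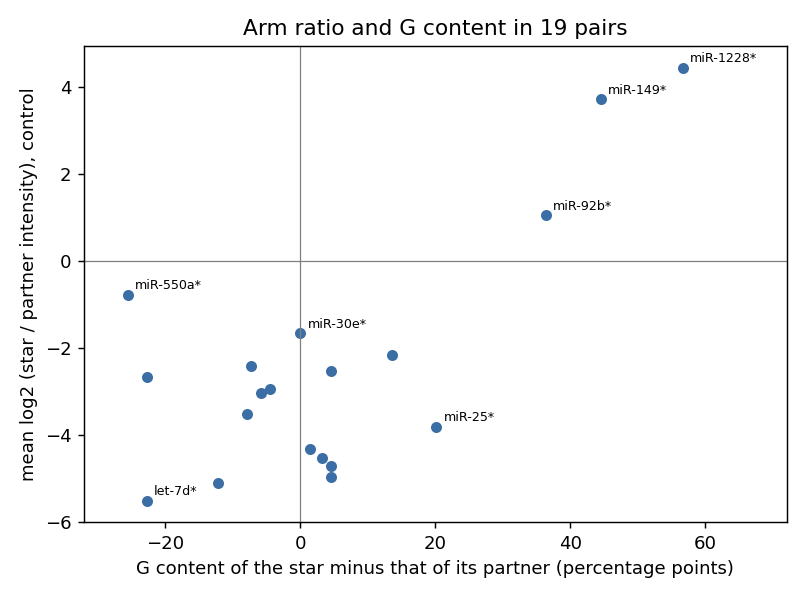
Mean log2 star-to-partner ratio in control (vertical) against the G content of the star minus that of its partner in percentage points (horizontal), for the 19 pairs with both sequences, 1 point per pair. The 3 pairs with a brighter star lie at 36.4 to 56.7 points and all others at 20.1 or below.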

How the data were processed

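Deposited were, per the file headers, raw spot intensity, background-subtracted intensity and globally normalized intensity for 3136 spots on each of 6 single-colour arrays. The authors left the background-subtracted intensity empty for spots near the blank spots, which defined detection here. Scanner and software are not given in the sources used here. Raw intensities were corrected by normexp (offset 50) and quantile normalized over human probes. Outlier-marked spots were dropped. limma 3.58.1 in R 4.3.3 was fitted over 625 probes that were detected throughout control, throughout treatment or both, with group as the only term, and p-values were adjusted by Benjamini-Hochberg over all of them (threshold 0.05). Ratios were fitted with limma over 21 pairs. The offset shrinks differences of dim probes, so scaled intensities, whose folds are ratios of geometric means, are printed too. Exact permutation of 3 against 3 arrays cannot go below p = 0.1, so no such test is given. The text names the 10 star probes and 10 pairs with the smallest unadjusted p, the 10 brightest stars, the 5 highest and 5 lowest ratios and up to 4 members a list. Other names were chosen after their values were seen. Members and lists were chosen with earlier results of these data known. The labels do not say whether the replicate numbers mark pairs. Same-numbered arrays deviated from their group means with correlations of -0.15, -0.17 and -0.05. No arrays held identical values. The limma fit of single probes was tried on simulated data, and the other steps were not. Alternatives changed background, scaling, filter, variance model and arrays used. Sequences were read with Python 3.11.15 and pandas 2.3.3.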

Additional observations from a re-analysis of the deposited data

How the results depend on the processing

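The 0 star calls stayed 0 with an offset of 16, scaled or the authors' normalized intensities, no filter, the filter on all 6 arrays, a trend with robust estimation, the replicate block and each array left out. Star calls arose without normalization (21, background 49.6% of all tested probes), with 75th percentile scaling (33, 39.2%) and with median scaling (2, 5.92%). They also arose with cyclic loess (1, background 1.12%) and with the spike-ins (1, background 3.98%, chosen after seeing the data). Against the same backgrounds, the 2 partner calls became 48, 24 and 6 in the first 3 settings, 2 with cyclic loess and 3 with the spike-ins. Partner calls numbered 3 with the offset of 16 (background 1.28%), 4 with no filter (0.465%) and 5 with trend and robust estimation (1.6%). They numbered 1 with scaled intensities (background 0.994%), 0 with the authors' intensities (0.199%) and 1 with the replicate block (0.64%). With an array left out there were 0 to 2 (background 0.48% to 0.96%). Changed ratios numbered 7 of 21 pairs on normexp values without normalization. These were miR-1228*, miR-149*, miR-181a*, miR-1909*, miR-29a*, miR-365* and miR-99b*. They numbered 1 of 21 with trend and robust estimation (miR-365*) and 1 of 35 over pairs complete in 1 group. The last was that of miR-194*, from which no test is read. Stars detected everywhere numbered 13 above the blank mean plus 3 SD and 14 above the highest negative control spot. The causes were not tested.

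Signs turned as follows. Without normalization the differences were 0.19 for miR-30a*, 0.0098 for miR-365*, 0.085 for miR-17*, 0.025 for miR-431*, 0.036 for miR-34b*, 0.012 for miR-518c*, 0.20 for miR-187*, 0.21 for miR-92b*, 0.16 for miR-181a-2* and 0.067 for miR-21*. With median scaling they were 0.016 for miR-30a*, -0.026 for miR-373*, 0.028 for miR-187* and 0.035 for miR-92b*. With 75th percentile scaling they were -0.11 for miR-373*, -0.075 for let-7a-2*, -0.059 for miR-130b* and -0.068 for miR-1914*. With the authors' intensities they were -0.00035 for miR-149*, -0.16 for miR-30e* and -0.056 for miR-1914*, with scaled intensities -0.027 for miR-30e*, and with the spike-ins 0.0013 for miR-30a*, 0.11 for miR-92b* and 0.14 for miR-181a-2*. On normexp values without normalization the ratio changes were -0.11 for miR-29c*, -0.15 for miR-1915*, 0.47 for miR-1228* and -0.021 for miR-30e*. On normexp and quantile values, over 21 or 35 pairs, they were -0.026 for miR-1915*, 0.072 for let-7d*, 0.18 for miR-1228*, 0.039 for miR-550a* and 0.047 for miR-20a*. With an array left out the differences ranged from -0.041 to 0.043 for miR-30e*, -0.075 to 0.026 for miR-92b*, -0.067 to 0.025 for miR-181a-2* and -0.0038 to 0.035 for miR-1914*. The ratio changes ranged from -0.42 to 0.25 for miR-1228*, -0.44 to 0.21 for miR-550a*, -0.14 to 0.25 for miR-30e* and -0.51 to 0.022 for miR-20a*. The low signal of most stars over background limits these values.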
